A study of Homo sapiens with 6 samples.

Results

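Peaks of DDX5-bound RNA whose summit lay in an exon of a long non-coding RNA (lncRNA) gene were described across 3 peak lists from RH30 cells. A peak was kept where its summit, the position of highest signal, fell in an exon of a gene typed lncRNA in GENCODE version 44 and in no exon of a protein-coding gene. Intervals with several summits counted once, by the summit with the lowest q-value. This left 1438 of 93198 peaks, 377 of 23715 in replicate 1, 424 of 23651 in replicate 2 and 637 of 45832 in replicate 3.

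RH30 is an established alveolar rhabdomyosarcoma line, positive for the PAX3-FOXO1 fusion that drives this muscle-lineage tumour. RNA was immunoprecipitated from nuclear extracts with the DDX5 antibody ab126730 in the 3 DDX5_IP samples, and 3 INPUT samples had no antibody. All 6 samples came from this 1 line, and the labels call the DDX5_IP samples biological replicates. INPUT samples were not analysed here, so no RNA level stands beside a peak, and the fold enrichment of a peak, the authors' ratio over the peak caller's background, can carry the abundance of its RNA. The libraries were unstranded, so reads of a lncRNA and of a transcript on the other strand cannot be told apart.

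DDX5 is a DEAD-box RNA helicase, a protein that remodels RNA duplexes and RNA-protein complexes. It acts in splicing, in transcription and in the Microprocessor step of microRNA maturation, and lncRNAs are among its known partners. LncRNAs are transcripts without a long open reading frame, many of them spliced, polyadenylated and kept in the nucleus. Some host small nucleolar RNAs (snoRNAs) in their introns, and some are transcribed from 1 parental allele of an imprinted locus.

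The sequences under the peaks are given first, as the GRCh38 genome at the median summit of the 3 lists with 50 bases on either side, 5′ to 3′ on the strand of the annotated lncRNA. Capitals mark the stretch from the lowest to the highest of the 3 summits, as far as it lay in the window. The first 8 belong to the merged regions with the highest fold enrichment in their weakest list, and are shown because they were the strongest peaks that recurred.
ENSG00000280614, chr21:8394151-8394251, - strand: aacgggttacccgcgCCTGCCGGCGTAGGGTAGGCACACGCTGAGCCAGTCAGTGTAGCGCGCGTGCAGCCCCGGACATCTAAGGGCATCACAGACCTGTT
SNHG14, chr15:25001960-25002060, + strand: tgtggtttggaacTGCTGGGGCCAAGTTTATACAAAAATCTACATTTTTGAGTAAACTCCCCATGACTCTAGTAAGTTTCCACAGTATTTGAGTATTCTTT
SNHG14, chr15:25115370-25115470, + strand: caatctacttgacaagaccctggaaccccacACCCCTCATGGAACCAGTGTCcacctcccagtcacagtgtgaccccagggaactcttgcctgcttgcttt
SNHG14, chr15:25050565-25050665, + strand: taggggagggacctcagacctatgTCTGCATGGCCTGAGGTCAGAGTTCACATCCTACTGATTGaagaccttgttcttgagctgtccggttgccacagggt
ZNF710-AS1, chr15:90076322-90076422, - strand: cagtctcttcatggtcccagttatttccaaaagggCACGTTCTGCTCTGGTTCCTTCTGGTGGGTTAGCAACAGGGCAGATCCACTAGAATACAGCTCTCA
ENSG00000280614, chr21:8393544-8393644, - strand: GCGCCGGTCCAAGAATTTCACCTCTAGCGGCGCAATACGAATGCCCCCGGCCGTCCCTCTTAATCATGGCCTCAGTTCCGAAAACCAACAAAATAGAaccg
ENSG00000184441, chr21:44332137-44332237, + strand: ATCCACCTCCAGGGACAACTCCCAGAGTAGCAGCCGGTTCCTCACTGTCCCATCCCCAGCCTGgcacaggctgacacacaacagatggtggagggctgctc
LINC00639, chr14:38835598-38835698, - strand: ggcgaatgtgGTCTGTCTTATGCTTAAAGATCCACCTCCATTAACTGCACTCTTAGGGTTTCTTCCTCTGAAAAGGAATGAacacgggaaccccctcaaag

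The next 6 belong to the other recurrent regions, outside pseudogene exons and coding gene bodies, where the 3 summits lay closest, and show how narrowly the lists could place a summit. They were chosen after their values were seen.
SNHG16, chr17:76563653-76563753, + strand: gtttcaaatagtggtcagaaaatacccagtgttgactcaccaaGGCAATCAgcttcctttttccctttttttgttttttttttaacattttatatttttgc
SORD2P, chr15:44826362-44826462, - strand: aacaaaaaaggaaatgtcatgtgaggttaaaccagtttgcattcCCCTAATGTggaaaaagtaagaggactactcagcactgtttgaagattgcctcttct
SNHG16, chr17:76563186-76563286, + strand: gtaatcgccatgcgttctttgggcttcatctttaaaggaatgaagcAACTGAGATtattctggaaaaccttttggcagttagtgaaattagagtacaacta
ENSG00000290951, chr7:75367367-75367467, + strand: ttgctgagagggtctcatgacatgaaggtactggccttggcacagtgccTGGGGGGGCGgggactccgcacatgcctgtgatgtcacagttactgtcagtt
CYTOR, chr2:87587206-87587306, + strand: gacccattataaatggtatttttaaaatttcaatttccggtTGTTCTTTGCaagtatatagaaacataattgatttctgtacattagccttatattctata
SNHG14, chr15:25111789-25111889, + strand: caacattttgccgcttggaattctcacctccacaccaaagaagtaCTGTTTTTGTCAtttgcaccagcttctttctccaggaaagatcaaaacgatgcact

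The 14 windows had no common composition. Their GC content ran from 25.7% in CYTOR to 64.4% in ENSG00000280614. The longest run of a single base was 10 in the T-rich SNHG16 window and 7 in the G-rich ENSG00000290951 window. A pattern of 4 stretches of 3 or more G with spacers of 1 to 7 bases, the simplest form of a possible G-quadruplex, was found on neither strand of any of the 14.

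Marker genes of the cell line were checked first. Of 12 muscle and rhabdomyosarcoma genes, 10 had an exonic peak in all 3 lists, among them MYOD1, MYOG, DES and FGFR4, whereas CHRNG had one in 2 lists and MYF6 in none. Of 7 markers of other lineages, PECAM1 alone had a peak, in 2 lists. The lists differed in length, replicate 3 holding the most peaks. Many peaks had exactly the fold and p of at least 9 others in their list, which was the case for 63.4%, 64.4% and 77.9% of lncRNA-exon peaks and for 53.7%, 61.0% and 68.0% of all peaks in replicates 1, 2 and 3. The folds of such peaks take few distinct values.

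LncRNA exons held 1.59%, 1.79% and 1.39% of the peaks of replicates 1, 2 and 3, a mean of 1.59% ± 0.201 (SD, n = 3). Median fold enrichment of these peaks was 2.99, 3.21 and 3.25. Over all peaks it was 2.66, 3.21 and 2.91, so the medians did not differ in replicate 2. In coding sequence it was 2.52, 2.87 and 2.83, and in 3' UTRs it was 2.598, 2.98 and 2.81. LncRNA-exon peaks were thus higher in each of the 3 lists, by 0.20 ± 0.044 on the log2 scale over coding sequence and by 0.17 ± 0.058 over 3' UTRs (SD, n = 3). Each p was 0.25 when the signs of the 3 differences were permuted exactly (two-sided sign-flip test), the smallest that 3 lists allow, and 0.375 after adjustment over 15 comparisons, so no comparison of this kind could pass 0.05. Peaks in lncRNA introns, with medians of 3.06, 3.50 and 3.25, were not lower than those in exons in any list (difference -0.05 ± 0.064, exact sign-flip p = 0.5). Peaks with a fold of at least 4 were 18.6%, 25.2% and 27.3% of the lncRNA-exon peaks, beside 11.4%, 24.7% and 19.5% of all peaks. Among them the difference in median fold turned to -0.0059 ± 0.019 against coding sequence and to -0.034 ± 0.026 against 3' UTRs. This cut is on the compared value itself, so it does not show that the difference over all peaks reverses.

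Peaks in lncRNA exons were narrow, with median widths of 157, 180 and 176 bp. Those in 3' UTRs had medians of 198, 238 and 247 bp, so that lncRNA-exon peaks were narrower in all 3 lists, with a difference of -0.41 ± 0.077 on the log2 scale (SD, n = 3, exact sign-flip p = 0.25). Coding-sequence peaks had medians of 161, 184 and 184 bp and lncRNA-intron peaks of 164.5, 179 and 173 bp, and the differences from them were -0.04 ± 0.018 and -0.01 ± 0.049 on the log2 scale. The sign of both turned under several other settings. The mean of the 3 medians was 226 bp among lncRNA-exon peaks with q under 1e-05, against 171 bp over all of them. The widest members spanned 4725, 981 and 3536 bp, and the first of these covered much of COPG2IT1.

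GC content of the summits with 50 bases on either side had medians of 46.5%, 44.6% and 45.5%. This was below coding sequence in all 3 lists (52.5%, 52.5% and 50.5%, a difference of -6.27 ± 1.51 percentage points) and above lncRNA introns in all 3 (44.6%, 40.6% and 41.6%, a difference of 3.30 ± 1.14 points; exact sign-flip p = 0.25 for both). Against 3' UTRs, with 44.6% in each list, the difference was 0.99 ± 0.990 points. The pattern of 4 G runs occurred around 2, 4 and 8 summits, that is 0.531%, 0.943% and 1.26% of the members, on either strand. It occurred in 2.01%, 2.46% and 2.08% of 3' UTR windows of the same length, a difference of -1.27 ± 0.391 points, and in 0.875%, 1.34% and 0.839% of coding-sequence windows. Here too p was 0.25 against 3' UTRs in the exact sign-flip test, and the counts behind the lncRNA values were small.

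**Figure D1:**
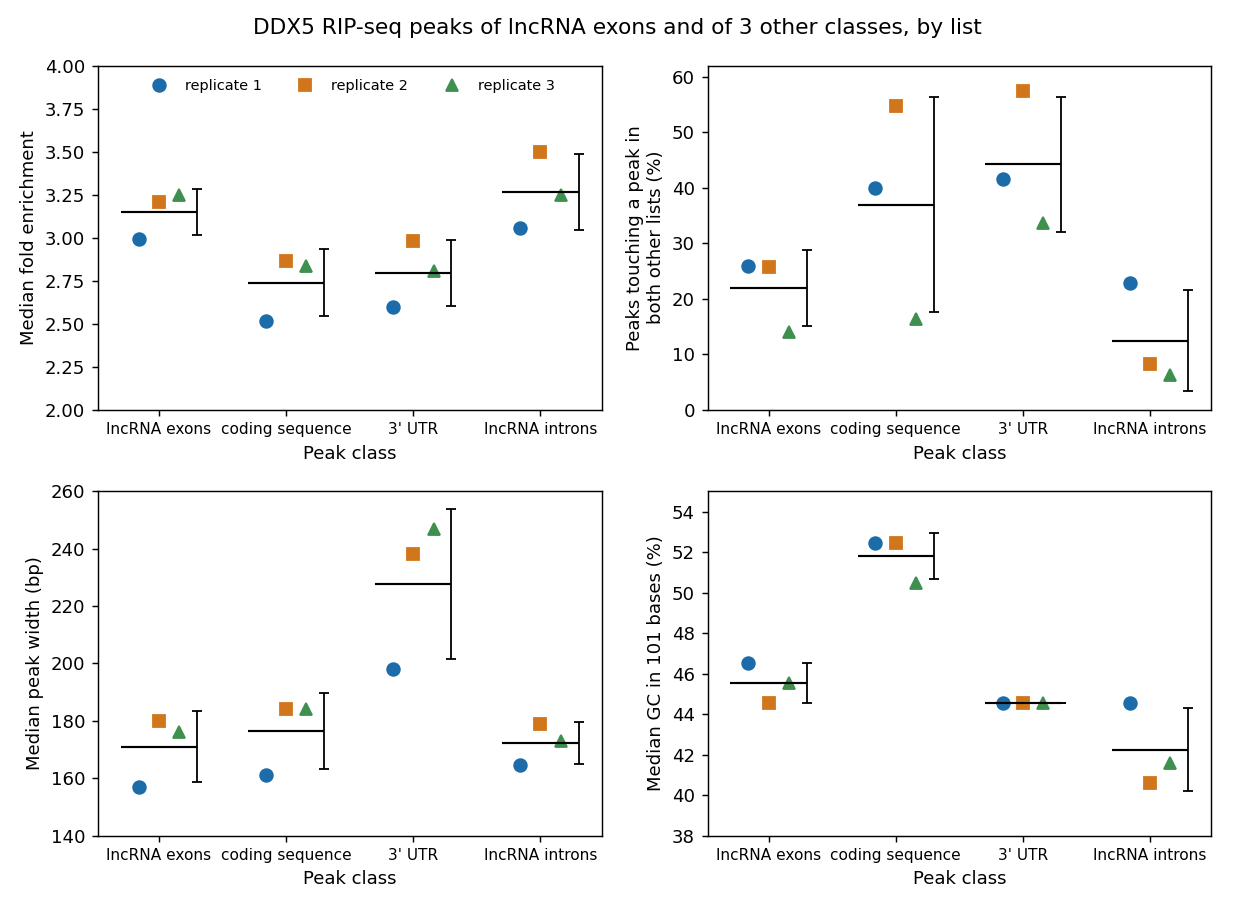
Median fold enrichment (a ratio), share of peaks touching a peak of both other lists (%), median peak width (bp) and median GC content around the summit (50 bases on either side, %) for peaks in lncRNA exons, coding sequence, 3' UTRs and lncRNA introns. Points are the 3 lists, horizontal lines their mean and bars the SD; the axes of fold, width and GC do not start at 0. In the fold panel the lncRNA-exon points (2.99, 3.21 and 3.25) lie above the coding-sequence point of the same list in each case, and in the overlap panel they lie below it.

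Recurrence between replicates was set beside that of messenger RNA exons. In replicates 1, 2 and 3, 26.0%, 25.7% and 13.97% of lncRNA-exon peaks touched a peak in both other lists by at least 1 bp, against 37.7%, 37.1% and 18.4% of all peaks. Coding-sequence peaks did so in 39.9%, 54.6% and 16.3% of cases and 3' UTR peaks in 41.6%, 57.5% and 33.6%. The lncRNA-exon share was lower in each list, with mean differences of -15.1 ± 13.3 and -22.3 ± 8.44 percentage points (SD, n = 3, exact sign-flip p = 0.25 for both). It was higher than in lncRNA introns (22.9%, 8.20% and 6.25%) in each list, by 9.44 ± 7.37 points. Among peaks with a fold of at least 4 the differences were -1.75 ± 5.06 points against coding sequence (exact sign-flip p = 1), -6.62 ± 2.93 against 3' UTRs and 0.759 ± 5.55 against lncRNA introns (p = 1). With 50% reciprocal overlap they were -13.3 ± 10.2, -9.19 ± 4.81 and 3.22 ± 2.71 points. The members were also narrower than 3' UTR peaks, as given above, and the part of width in this difference was not tested.

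The members merged into 1012 regions, of which 77 held a member summit from all 3 lists, 230 from 2 and 705 from 1. The share in all lists was 7.61%, beside 13.6% of the merged regions of all peaks. The second share counted peaks of any class, whereas a member region needed a member summit from each list, so they are not counted alike. At q under 1e-05 there were 32 such regions, at a fold of at least 4 there were 9, and without peaks on shared values there were 25. With 1 list left out, the count in both others was 152 without replicate 1, 188 without replicate 2 and 126 without replicate 3. Within the 77 regions, whose median length was 396 bp (113 to 4725 bp), the 3 summits lay a median of 70 bp apart. They lay within 100 bp in 51 regions (66.2%) and within 20 bp in 12. An exon of a pseudogene held the summit in 11 of the 77 regions, the body of a protein-coding gene in 17, and neither in 49.

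Of 18866 annotated lncRNA genes, 556 (2.95%) had an exonic peak in at least 1 list, counting peaks whose summit lay in exons of exactly 1 lncRNA gene. There were 207, 276 and 375 such genes in replicates 1, 2 and 3. An exonic peak in all 3 lists was found for 80 genes, which is 0.424% of the annotated lncRNA genes and 14.4% of the 556. Among protein-coding genes with an exonic peak in at least 1 list, 46.1% had one in all 3. A gene needs a peak in each list to count here, and 307 of the 556 lncRNA genes had a single peak. Peaks per gene were not matched between lncRNA and protein-coding genes. The 80 genes became 36 at q under 1e-05, 8 at a fold of at least 4 and 27 without peaks on shared values. Leaving out replicate 1 gave 141 genes in both other lists, leaving out replicate 2 gave 133 and leaving out replicate 3 gave 108.

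**Figure D2:**
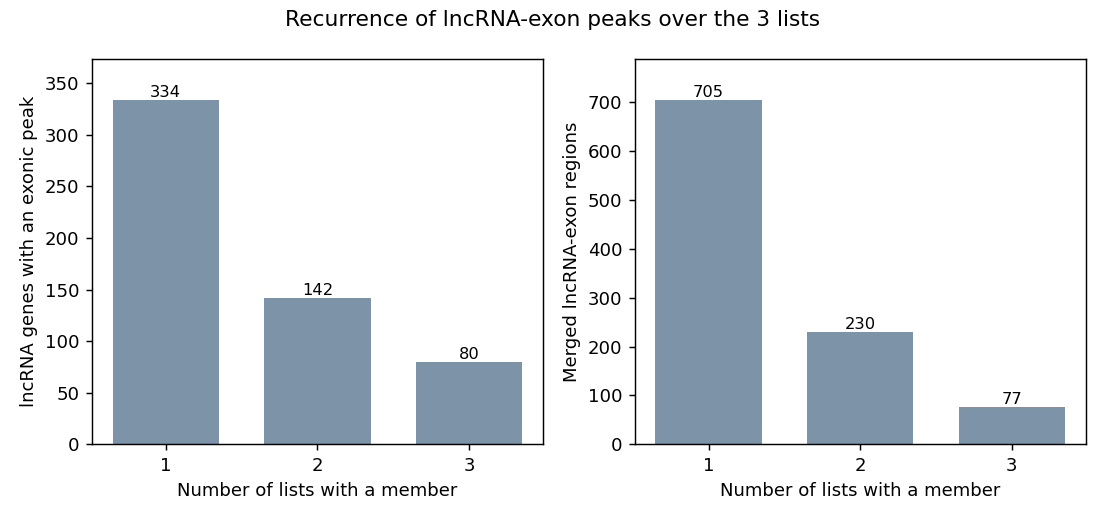
Number of lncRNA genes with an exonic peak (left) and of merged lncRNA-exon regions (right) by the number of lists, 1 to 3, that held them. Most genes (334 of 556) and most regions (705 of 1012) were found in 1 list, and 80 genes and 77 regions in all 3.

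A few genes held many of the peaks. SNHG14 alone had 77 members (5.35%), and the 14 genes with at least 10 members held 279 (19.4%), whereas 307 genes had a single one. Best fold enrichment of a gene, taken at its peak with the lowest q, correlated only loosely between lists. Across genes, which are not independent replicates, Spearman's rho was 0.149 over 108 genes shared by replicates 1 and 2, 0.510 over 133 genes shared by 1 and 3, and 0.334 over 141 genes shared by 2 and 3. Over the 80 genes in all lists, the mean of the 3 best folds ran from 2.00 to 13.8 with a median of 3.57. The 3 best summits of a gene lay within 100 bp for 23 of the 80, so the best folds printed for a gene often come from different places in it, and 37 of the 80 have no name beyond their Ensembl identifier.

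Most summits lay in the last exon or in the only exon of a transcript. The last exon of the longest transcript at the summit held 41.4%, 45.3% and 45.4% of members, and single-exon transcripts held 37.4%, 33.3% and 26.2%. Middle exons held 12.7%, 9.43% and 16.2%, and first exons held 8.49%, 12.0% and 12.2%. These exons were long, with medians of 2133, 1972 and 1470 bp, and the share of exon sequence in each place was not set against them. Along the spliced transcript the summits showed no pile-up at either end. Their median position was 50.7%, 51.1% and 50.0% of the length from the start, and each step of 20% of the transcript held between 17.5% and 21.6% of members on average over the lists.

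**Figure D3:**
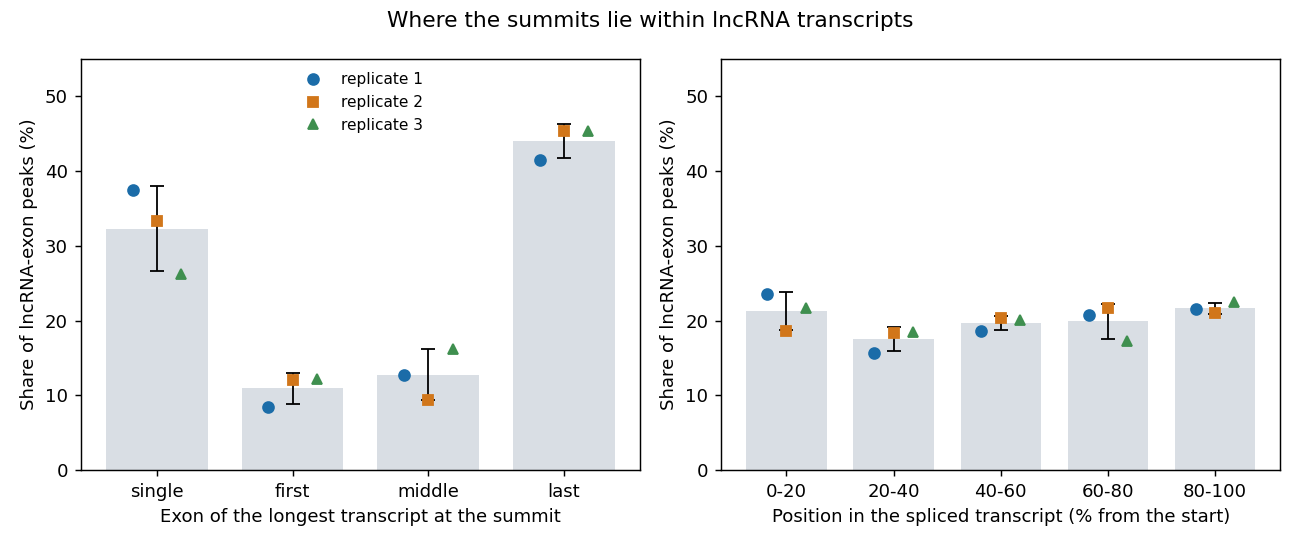
Share of lncRNA-exon peaks (%) by the exon that held the summit (left) and by position along the spliced transcript in steps of 20% from the start (right). Bars are means of the 3 lists with the SD, and points are the lists. The last exon holds 44% on average, and the 5 steps along the transcript range from 17.5% to 21.6%.

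Many members lay inside another gene. The summit was within the body of a protein-coding gene, outside its exons, for 21.2%, 31.1% and 28.1% of members. The coding gene ran on the opposite strand alone for 13.5%, 22.4% and 21.5%, and on the same strand alone for 6.10%, 7.55% and 5.34%. Reads of the coding gene's introns would give the same peaks in unstranded data. Without these peaks the share of lncRNA exons was 1.16% ± 0.141 (SD, n = 3) of all peaks. A further overlap was with exons of pseudogenes, which held 9.02%, 4.48% and 12.9% of the summits. Summits within 5 kb downstream of a coding gene's end on its strand made up 6.37%, 5.66% and 5.34%.

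SNHG14, the long paternally expressed transcript of the Prader-Willi region that hosts snoRNA clusters and runs antisense into UBE3A, held the most peaks. It spans chr15:24978583-25420336 on the plus strand and had 28, 19 and 30 exonic peaks in replicates 1, 2 and 3. Its best peak had a fold enrichment of 11.7, 7.89 and 15.7, a mean of 11.8 ± 3.91 (SD, n = 3). The 77 peaks fell into 36 regions, 7 of them found in all lists, and 42 summits lay in last exons, 31 in middle and 4 in first exons of its transcripts.

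The 7 shared SNHG14 regions included 4 of the 10 lncRNA-exon regions with the highest lowest fold. The region at chr15:25001281-25002533 had folds of 11.7, 6.65 and 15.7 in replicates 1, 2 and 3, with summits 315 bp apart. At chr15:25115211-25115717 the folds were 6.15, 6.92 and 5.98 and the summits lay within 20 bp, as the short capital stretch of its sequence shows. At chr15:25049166-25050750, in a first exon, they were 5.42, 7.89 and 9.32 with summits within 39 bp. The fold of the second of these varied least (SD 0.50), and the order of the lists differed between the 3 regions. A region in a last exon at chr15:25119045-25120402 had folds of 3.84, 4.77 and 4.36. Peaks also covered snoRNA genes inside SNHG14: intervals over SNORD107 had folds of 9.89 in replicate 1 and 9.55 in replicate 3, and SNORD64 and SNORD108 were covered in replicate 2, with folds of 5.05 and 2.77. The summit of the SNORD107 interval of replicate 1 lay inside the coding gene ENSG00000214265 on the same strand. Intron reads of that gene cannot be told from SNHG14 there.

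**Figure D4:**
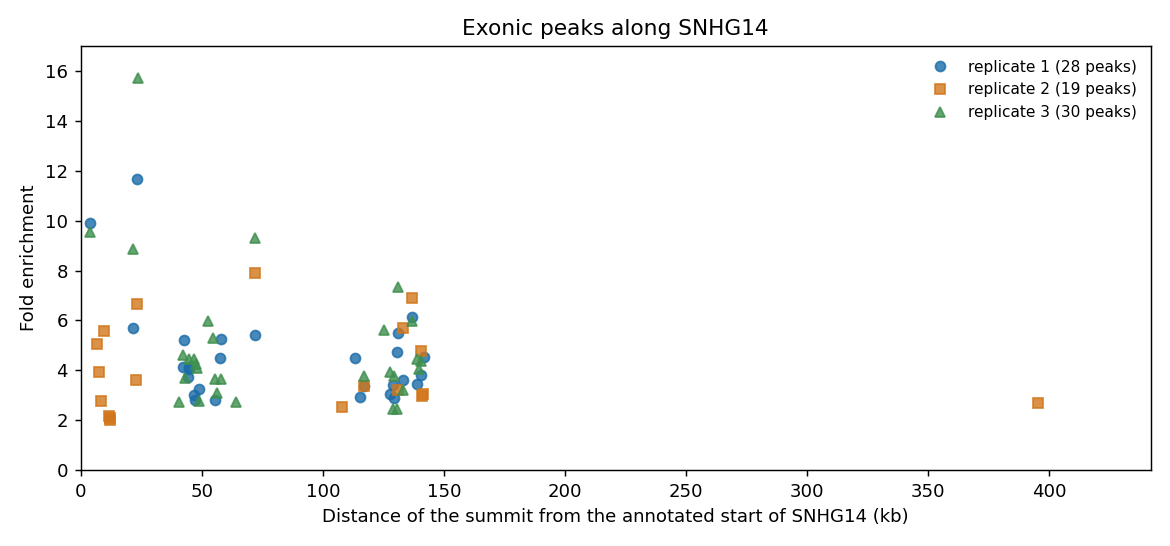
Fold enrichment of each exonic peak of SNHG14 (y, a ratio) against the distance of its summit from the annotated start of the gene (x, kb). Each point is a peak, coloured by list (28, 19 and 30 peaks). A single peak, of replicate 2, lies far downstream of all others, and the highest (15.7, replicate 3) shares its region with the highest peak of replicate 1 (11.7).

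The other imprinted lncRNA genes had lower folds. MEG8, a maternally expressed snoRNA host of the DLK1-MEG3 domain, had 3, 3 and 4 peaks with best folds of 2.40, 5.12 and 2.50. MEG3, the maternally expressed lncRNA of the same domain, had 8, 4 and 4 peaks with best folds of 4.17, 1.87 and 2.10. KCNQ1OT1, the antisense transcript within KCNQ1 that silences neighbouring genes on the paternal allele, had 5, 11 and 14 peaks with best folds of 3.87, 3.50 and 4.15. At the places these genes shared between lists, the folds lay closer. They were 4.17, 2.91 and 3.10 in one MEG3 region and 1.85, 1.87 and 2.10 in the other, 2.40, 2.91 and 2.50 in the MEG8 region, and 2.81, 2.98 and 2.70 in the KCNQ1OT1 region. KCNQ1OT1 lies inside KCNQ1 on the other strand. Over all annotated lncRNA genes, 2.95% had an exonic peak in at least 1 list of peaks and 0.424% in all 3. Of 15 imprinted lncRNA genes in the list, 6 had an exonic peak in at least 1 list of peaks, 4 of them in all 3. MESTIT1 and ZNF667-AS1 had one in 2. The median of the mean best folds of the 4 was 3.59, beside 3.57 over all 80 recurrent genes.

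Among 31 snoRNA host genes, 9 had an exonic peak in at least 1 list and 3 in all 3, which were SNHG14, SNHG16 and MEG8. Over all annotated lncRNA genes the shares were 2.95% and 0.424%. SNHG16 had 2, 2 and 3 peaks, all of low fold. Its best peak had folds of 2.41, 2.31 and 2.43, a mean of 2.38 ± 0.068 (SD, n = 3), with the summits within 8 bp. A second SNHG16 region had folds of 1.85, 2.43 and 2.01 with summits within 7 bp. Both lie in a last exon and both sequences are printed above, 1 of them with a long T run. DANCR, SNHG1 and SNHG29 had a peak in 2 lists, and SNHG14 had the highest best fold of the 9 in each list.

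Of 40 nuclear and regulatory lncRNA genes, 14 had an exonic peak in at least 1 list, 4 of them in all 3 lists. The shares over all annotated lncRNA genes were 2.95% and 0.424%. NORAD, which binds and sequesters Pumilio proteins, had 6, 3 and 7 peaks over its single exon with best folds of 2.90, 2.41 and 3.06 (mean 2.79 ± 0.338, SD, n = 3). CYTOR, a lncRNA best known from carcinomas, had 6, 5 and 5 peaks with best folds of 2.65, 5.34 and 3.00, and 3 of its regions were found in all lists. LINC01128 had best folds of 3.88, 6.80 and 2.50, and HELLPAR, named for its link to HELLP syndrome, had 4.15, 3.85 and 3.25. Replicate 2 was the highest in each of the 3 shared CYTOR regions, with folds of 3.36, 5.34 and 2.56. The shared NORAD region had folds of 2.57, 2.41 and 3.06. LINC01128 and HELLPAR had no region common to the 3 lists, so their peaks recurred by gene and not by place. The HELLPAR exon is annotated as 205012 bp long, so peaks far apart count for this gene.

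NEAT1, the scaffold RNA of paraspeckles, had 13 exonic peaks in replicate 1, 6 in replicate 2 and 0 in replicate 3, the longest list. Its best folds were 4.39 and 2.598, and 1 interval of replicate 2, with a fold of 2.91, covered the microRNA gene MIR612. NEAT1 was thus not a recurrent member. MALAT1, the abundant lncRNA of nuclear speckles, and H19, the imprinted lncRNA beside IGF2, had 0 peaks anywhere in their gene body in the 3 lists. Both were chosen for mention after this was seen, and without INPUT levels a missing peak does not show a lack of binding.

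Counts in the other gene lists were small. They stand beside 2.95% of all annotated lncRNA genes with an exonic peak in at least 1 list and 0.424% in all 3. Among 34 microRNA host lncRNA genes, MIR4435-2HG and MIR600HG had an exonic peak in all 3 lists and MIR503HG in 2. MIR4435-2HG had folds of 3.96, 3.24 and 3.50, and MIR600HG, which lies inside STRBP on the same strand, had 2.77, 4.49 and 3.35. Intron reads of STRBP cannot be told from MIR600HG there. In the region that MIR600HG shared between lists the folds were 2.77, 2.38 and 3.35. Both ranges overlapped that of the 80 recurrent genes around their median. Among 16 muscle lncRNA genes, MEG3 was found in all lists and TTN-AS1, antisense to the titin gene, in 1. Of 18 lncRNA genes of the HOX clusters, HOXA-AS2 had a peak in 1 list.

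The highest mean of best folds belonged to ENSG00000280614, a single-exon record at chr21:8393419-8394341 on the minus strand. It had 2 peaks in each list, with best folds of 18.04, 14.3 and 9.14 in replicates 1, 2 and 3 (mean 13.8 ± 4.47, SD, n = 3). The record lies within the RefSeq gene RNA18SN3, one of the genes for 18S ribosomal RNA, at chr21:8392666-8394534. Both of its regions are among the 10 with the highest lowest fold, with 18.04, 7.70 and 9.14 in the first and 4.35, 14.3 and 6.66 in the second. The lists disagreed on which region was higher, replicate 2 favouring the second. Ribosomal RNA is the most abundant RNA of a nucleus and its gene copies are nearly identical, so the source of these reads and the copy they came from are uncertain. The printed windows of ENSG00000280614 follow its annotated minus strand, and unstranded reads could come from either strand. In all, 10 members (4, 3 and 3) lay within RefSeq 45S ribosomal RNA genes of chromosome 21, in 3 lncRNA records. A further record of the same length as ENSG00000280614 on that chromosome arm, ENSG00000281383, lies outside those RefSeq genes and held 2 members in replicate 1 and 2 in replicate 3, with folds of 1.41 to 1.46.

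Several of the 20 highest-ranked genes lie opposite a coding gene. ZNF710-AS1, antisense to the zinc finger gene ZNF710, had best folds of 5.41, 5.76 and 4.93, the smallest SD among those of the 20 with a mean above 5 (mean 5.37 ± 0.415, SD, n = 3). The 3 summits behind these folds lay 559 bp apart, and replicate 1 had a separate peak, with a fold of 4.84, near the summits of the other lists. An interval in each list also covered a U7 small nuclear RNA record within ZNF710-AS1. COPG2IT1, opposite the coatomer subunit gene COPG2, had 3, 7 and 7 peaks and best folds of 8.18, 2.79 and 3.28, and replicate 1 was the highest in both of its shared regions. ENSG00000272405, opposite the brevican gene BCAN, had 3.42, 6.73 and 4.39, and 2.59, 6.73 and 4.39 in its shared region. ENSG00000261959, which partly overlaps SGCA, the gene of the muscle protein alpha-sarcoglycan, had best folds of 3.01, 2.91 and 4.64 outside SGCA. Its peaks opposite SGCA had folds of 4.03 in replicate 1 and 1.97 in replicate 2. ENSG00000184441, opposite CFAP410, had 4.33, 5.13 and 8.70 in a first exon. Of the 80 recurrent genes, 22 had a member inside a coding gene, 15 of them with the opposite strand only.

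Transcribed pseudogenes that GENCODE types as lncRNA, and other lncRNA genes with a peak in a pseudogene exon, formed another group. SORD2P, derived from the sorbitol dehydrogenase gene SORD, had best folds of 3.18, 4.37 and 3.08 with all 3 summits within 8 bp. GTF2IP1, derived from the transcription factor gene GTF2I, had 3.43, 4.37 and 4.12, and 10 of its 11 peaks lay in exons of pseudogene records. LINC00639 had a region in a pseudogene exon with folds of 5.05, 4.16 and 4.71. The best peaks of GTF2IP1 lay in different places, and its shared region had folds of 1.92, 1.78 and 2.08. Reads of the parent genes could have been placed there, which was not tested. In total 14 of the 80 genes had a peak in a pseudogene exon.

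The other genes described from the 20 were intergenic or partly overlapping lncRNAs. CEROX1, a lncRNA that raises the expression of complex I subunits, had best folds of 2.29, 7.21 and 11.4 (mean 6.98 ± 4.58, SD, n = 3). ENSG00000268205 had 5.58, 3.16 and 10.6 over 10 peaks in a single exon. The CEROX1 values come from a last exon in replicate 1 and from a first exon in the other lists. At the region that all lists share the folds were 2.29, 2.18 and 2.76. That region lies inside the coding gene LMF1 on the same strand, so intron reads of LMF1 cannot be told from CEROX1 there. The values of ENSG00000268205 come from 1 long region with summits 1670 bp apart. LINC01278 had 14 peaks with best folds of 3.82, 6.80 and 3.48, and its shared region had 3.82, 2.91 and 3.48. ENSG00000250899 had 3.21, 4.92 and 3.75 with its summits within 11 bp. Replicate 2 was the highest there, as in ENSG00000284837 (2.98, 3.77 and 3.02), whose summits lay within 31 bp. ENSG00000289950 had 1 peak per list with folds of 3.68, 2.03 and 3.89, and its summits lay within 25 bp.

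**Figure D5:**
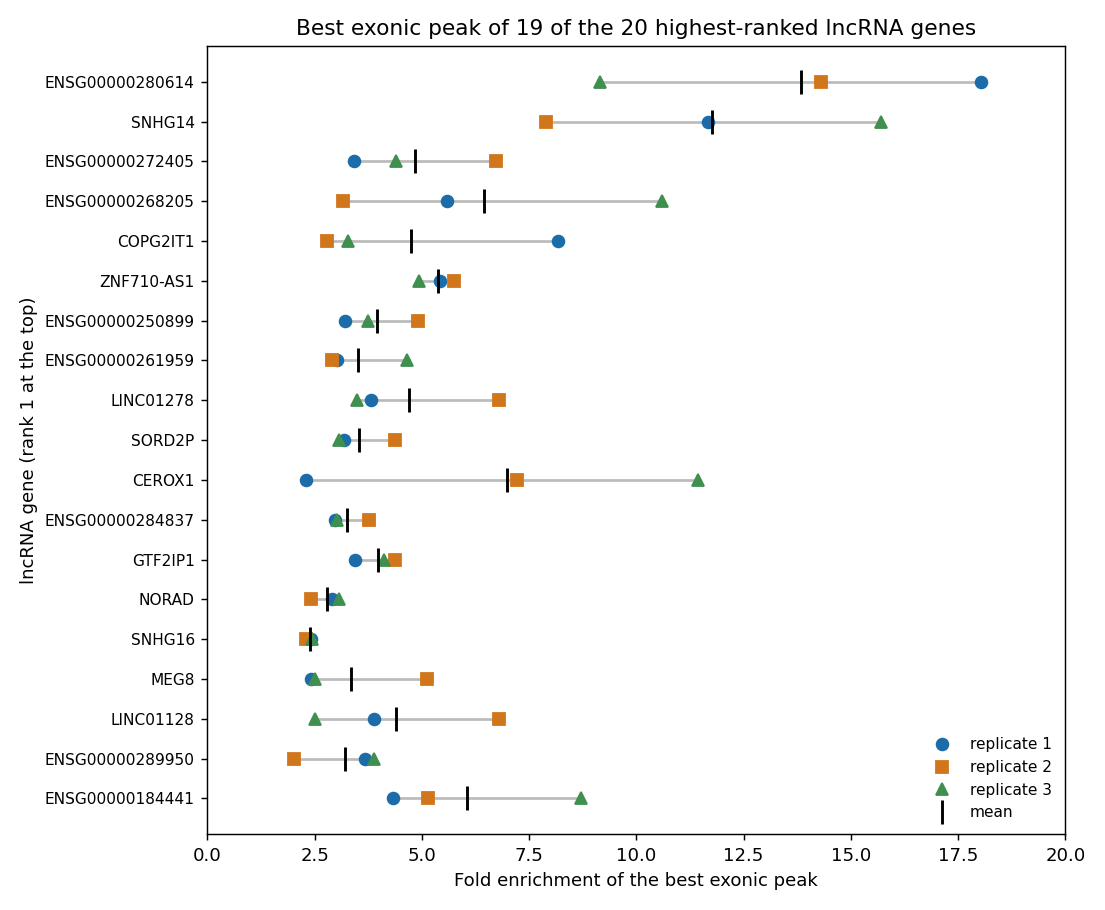
Fold enrichment (x, a ratio) of the best exonic peak of 19 of the 20 lncRNA genes with a peak in all 3 lists that ranked highest by significance, rank 1 at the top. Points are the 3 lists, black ticks their mean and grey lines their range. ENSG00000280614 and SNHG14 have the highest means, 13.8 and 11.8, and SNHG16 the narrowest range, 2.31 to 2.43.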

How the data were processed

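RIP-seq of nuclear RNA was analysed from 1 deposited peak list per DDX5_IP sample, 3 lists in all, grouped by the labels. Per the submitters' processing notes, reads were handled with STAR 2.6.1d, cutadapt 1.11, SAMtools 1.10, bcl2fastq 2.20 and FastQC 0.11.8, the peak caller was MACS2 2.2.7.1, and the build was GRCh38/hg38. Parameters and the control of the peak calls are not given in the sources used here. The authors gave fold enrichment as a ratio, the deposited p- and q-values are on the −log10 scale, and the deposited score was not used further. These describe and rank peaks within a list. Interval positions and summit offsets were read as deposited. Depth is unknown, so no counting interval is given.

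Peaks outside the main chromosomes and the mitochondrial genome, 255 in all, were left out. Genes came from GENCODE 44. RefSeq gave the ribosomal RNA gene. Differences between peak classes of the same list were tested over the 3 lists by exact permutation of their signs (a two-sided sign-flip test), with Benjamini-Hochberg adjustment over 15 tests. Peaks are not replicates and carry no test.

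Genes named were the 20 recurrent genes with the highest mean percentile of best −log10 q among members, up to 5 recurrent genes of each of 6 gene lists (with those in 2 lists where fewer than 3 recurred) and the genes of the 10 regions with the highest lowest fold. Of the 20 genes, 1 is not reported here. Others are marked as chosen after their values were seen. Members and lists were chosen with earlier results of these data known. Alternatives covered q, fold, list length, each replicate, overlap rules, annotation, window length and, added after the data were seen, 2 exclusions. Python 3.11.15 with pandas 2.3.3, numpy 2.4.6, scipy 1.17.1 and pysam 0.24.0 was used, and the code was tested on simulated data.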

Additional observations from a re-analysis of the deposited data

How the results depend on the processing

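The depth of the libraries is unknown, so no counting error stands behind a fold or a missing peak. No paired analysis was possible because only the DDX5_IP group has lists here. The planned share of summits in repeat-masked sequence was not run, since the genome used marks no repeats. Of 318 other values, 25 turned sign, 1 fell to 0, 36 were classed as moved in size and 256 as none of these. Of those 256, 166 were differences between classes, which kept their sign, and 54 of these became more than 1.5 times larger or smaller. The others of the 256 were shares, medians or counts, which have no direction. The cause was not tested unless stated.

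At q under 1e-05 the median fold was 3.85, the median width 226 bp, and 32 regions and 36 genes were in all lists, from fewer peaks. Width minus coding sequence became 0.081 and minus lncRNA introns 0.054 (log2), GC minus 3' UTR -0.33 points, and 4 G runs minus lncRNA introns -0.024 points. At a fold of at least 4, lncRNA exons held 2.12% of peaks, with a median fold of 4.63, a width of 238 bp, 9.75% touching both other lists, 0.383% with 4 G runs, 41.3% in last exons, 9 regions and 8 genes in all lists. Fold minus coding sequence became -0.0059 and minus 3' UTR -0.034, width minus coding sequence 0.26 (log2), GC minus 3' UTR -4.95 points, and 4 G runs minus lncRNA introns -0.620, minus coding sequence -1.74 and minus 3' UTR -4.25 points. At equal list lengths the median fold was 3.43 and the width 198.5 bp. Width minus coding sequence became 0.054 and minus lncRNA introns 0.041 (log2), and 4 G runs minus lncRNA introns -0.371 points.

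Without coding gene bodies the share was 1.16%, the share inside such bodies 0 by construction, and 4 G runs minus lncRNA introns -0.121 points. With basic transcripts the last was -0.073 points. Without pseudogene and small RNA exons, width minus coding sequence was 0.0045 and minus lncRNA introns 0.037 (log2). With every summit counted, the width was 235 bp and the share touching both other lists 30.3%. Width minus coding sequence was then 0.20 and minus lncRNA introns 0.12 (log2), and GC minus 3' UTR 0.00 points. The share touching both other lists was 8.47% with 50% reciprocal overlap and 12.5% with summits within 100 bp. Windows of 100 bases on either side gave 2.26% with 4 G runs.

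Leaving out peaks on shared values, a choice made after the data were seen, gave a share of 1.29%, a median fold of 2.82, a width of 223 bp, 1.62% with 4 G runs, 39.2% in last exons, 25 regions and 27 genes. Width minus coding sequence became 0.0040 and minus lncRNA introns 0.22 (log2), and 4 G runs minus coding sequence 0.852 and minus 3' UTR -0.275 points. Leaving out SNHG14 and ENSG00000280614, also chosen afterwards, turned no sign.

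Without each replicate in turn, the share touching every other list ran from 34.4% to 45.4%, regions in both lists from 126 to 188 and genes from 108 to 141, since fewer lists had to agree. Width minus lncRNA introns ran from -0.030 to 0.016 (log2), 4 G runs minus coding sequence from -0.369 to 0.036 points and minus lncRNA introns from -0.239 to 0.263 points. Fold minus coding sequence kept its sign, from 0.18 to 0.22, and minus 3' UTR from 0.16 to 0.21 (log2).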
